A study of Mus musculus with 4 samples.

Results

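Ribosomal protein genes encode the protein part of the cytosolic ribosome, and they were followed here in regulatory T (Treg) cells of the large intestine (LI) with and without the histone methyltransferase Setd2. Members were taken by symbol from the expression table, as the genes whose names start with Rpl or Rps and a digit, together with Rplp0, Rplp1, Rplp2 and Rpsa. Names with -ps, which mark pseudogenes, and names starting with Rps6k, Rps19bp or Rpl7l were left out. This gave 91 of the 53379 genes in the table, of which 81 could be tested, 33 of the small (40S) and 48 of the large (60S) subunit.

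The study deleted Setd2, which trimethylates lysine 36 of histone H3, in cells that express Foxp3, the transcription factor that defines Treg cells, and asked what the deletion changes in their mRNA. Control mice carried Setd24flox/+Foxp3-YFPcre, so 1 copy of Setd2 was floxed and 1 was intact, and KO mice carried Setd24flox/floxFoxp3-YFPcre. All were adult C57BL/6 littermates at steady state, and both groups carried the same Foxp3-driven Cre fused to a yellow fluorescent protein (YFP), so control Treg cells could also lose 1 copy of Setd2. Each group had 2 libraries of poly(A) RNA, each made from sorted CD3+CD4+YFP+ cells pooled from 2 to 3 mice, and the spread within a group is therefore the spread between 2 pools.

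Every cytosolic ribosome holds each of its proteins in about equal number, and the genes that encode them are scattered over the genome but are transcribed and translated in a coordinated manner. Most of their mRNAs begin with a C followed by a run of pyrimidines, the 5' terminal oligopyrimidine (5' TOP) motif, through which the kinase mTORC1 and the RNA-binding protein Larp1 set their translation and stability. Their output rises when a T cell is activated and grows, and the transcription factor Myc drives many of the genes that build ribosomes.

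The values are FPKM, read fragments scaled to transcript length and to the number of mapped fragments, so levels of different genes can be set side by side per unit of length. The 4 columns follow nearly the same distribution, with sums that differ by 0.0098% at most. The depth of the libraries is therefore unknown, and a change in the total mRNA of a cell cannot be seen. The lowest values did differ: 33957 and 28426 genes were listed at 0 in controls 1 and 2, and 33490 and 33223 in KO 1 and 2. Setd2 itself was at 38.2 and 27.4 FPKM in the controls and 26.3 and 36.3 FPKM in the KO, which overlap, so its total mRNA level does not check the labels. Foxp3 was at 2.62 to 5.61 FPKM, while Il2ra, Ctla4, Tnfrsf18, Cd3e and Cd4 were all above 100 FPKM. Of the markers of other cells, Jchain, Ighm and Igha (B and plasma cells) and Lyz2 (myeloid cells) exceeded 100 FPKM in every library, with B and plasma cell list sums of 681 and 871 FPKM in the controls against 750 and 772 FPKM in the KO.

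Ribosomal protein mRNA took a smaller share of the summed FPKM in both KO libraries than in both controls. The 91 genes together held 5.69% and 5.96% of the summed FPKM in the control libraries and 4.71% and 4.94% in the KO libraries. The means were 4.83% ± 0.158 (SD, n = 2) in KO and 5.82% ± 0.194 (SD, n = 2) in control, a difference of -0.997 percentage points. An exact permutation test of these 4 values gave a two-sided p of 0.33, the smallest that 2 against 2 libraries allow. In bulk samples, fewer cells rich in these mRNAs and less of the mRNA in each cell cannot be told apart.

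**Figure D1:**
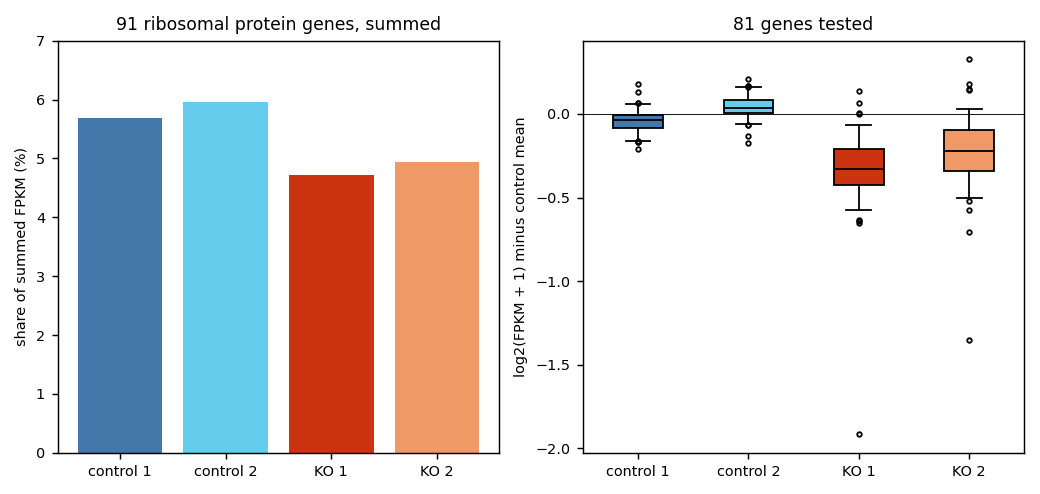
Left, bars give the share of the summed FPKM (%) held by the 91 ribosomal protein genes in each library, from 4.71% in KO 1 to 5.96% in control 2. Right, boxes give log2(FPKM + 1) minus the control mean for the 81 genes tested (line, median; box, quartiles; whiskers, percentiles 5 to 95; circles, genes beyond them), and both KO boxes sit below 0, with medians of -0.33 and -0.22.

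Gene by gene, 41 of the 81 members tested fell in KO LI Treg cells and 0 rose, at an unadjusted p below 0.05 in limma, the threshold of the study's methods. Among all 7639 genes tested, 7.57% fell and 8.61% rose by the same criterion. The log2 fold change (KO over control, on log2(FPKM + 1)) was below 0 for 78 members, against 50.6% of all genes tested. Its median was -0.28 (quartiles -0.38 and -0.16), beside -0.0039 over all genes tested. On the linear scale the median member was Rpl3, which forms part of the peptidyl transferase region and whose KO mean was 82.4% of its control mean. After Benjamini-Hochberg adjustment over all genes in limma, 1 member (Rpl29) was below 0.05, against 0.275% of all genes lower and 0.314% higher. The adjusted p of the 41 members ran from 0.0201 to 0.303.

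Both KO libraries were below both controls in 67 members, while this held for 22.9% of all genes tested. Both KO libraries were above in 2, Rps27l and Rpsa, against 24.2% of all genes, and the groups overlapped in the other 12. Both subunits gave similar counts, with 17 of 33 members lower and a median log2 fold change of -0.30 for 40S genes, and 24 of 48 lower and a median of -0.25 for 60S genes. The order of the levels was nearly the same in both groups, with a Pearson r of 0.984 across the 81 genes between the log2 mean FPKM of control and KO.

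**Figure D2:**
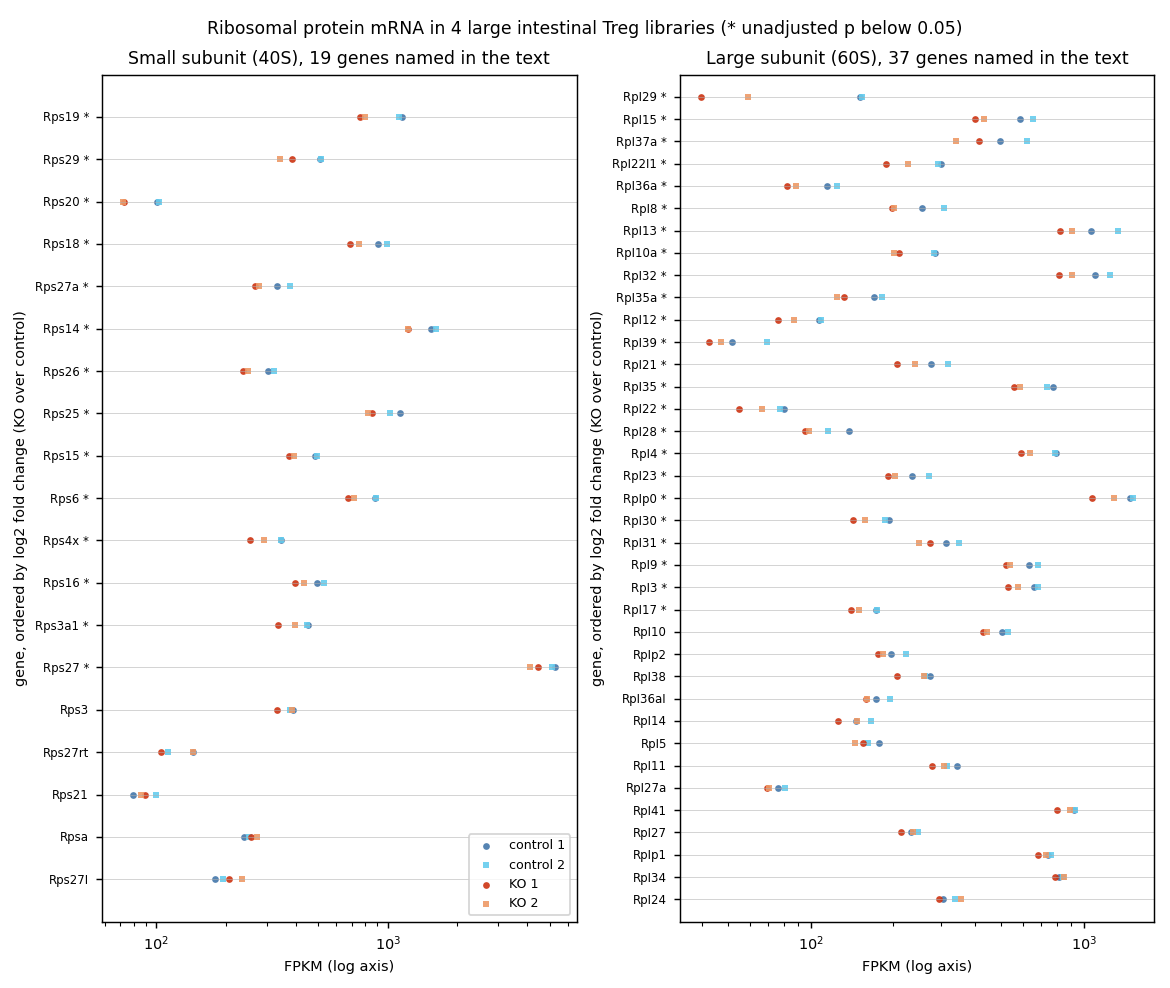
FPKM (log axis) of the 56 ribosomal protein genes named in the text in the 2 control libraries (blue) and the 2 KO libraries (red and orange), with 19 40S genes on the left and 37 60S genes on the right, ordered by log2 fold change from the lowest at the top. Both KO points lie left of both control points in 47 of these genes, and asterisks mark the 38 with an unadjusted p below 0.05.

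Transcription starts of members were read from RefSeq promoter sequences of GRCm38.p6, to see which carry a pyrimidine run near the annotated start. The 5' TOP motif begins at the first base of the mRNA, while a run was accepted here anywhere in the window. The 30 bases shown run from 15 before the annotated start to 15 from it on, on the strand of the gene. Capitals mark the first run of a C followed by at least 5 C or T. The first 4 genes fell, the next 3 carry a run but did not pass the test, and the last 3 carry none, of which Rplp0 fell.
Rpl15: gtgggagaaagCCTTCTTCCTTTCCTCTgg
Rpl35: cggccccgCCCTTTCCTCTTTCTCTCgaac
Rps6: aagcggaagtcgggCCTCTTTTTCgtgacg
Rps18: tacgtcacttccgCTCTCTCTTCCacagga
Rpl27a: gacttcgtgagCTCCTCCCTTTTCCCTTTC
Rplp2: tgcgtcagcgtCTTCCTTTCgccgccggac
Rps27l: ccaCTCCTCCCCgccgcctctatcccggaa
Rplp0: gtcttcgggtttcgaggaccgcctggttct
Rpl24: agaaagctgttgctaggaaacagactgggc
Rpsa: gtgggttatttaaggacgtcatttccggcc

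These windows are at chr14:18270972-18271001 (minus strand) for Rpl15, chr2:39005117-39005146 (minus) for Rpl35, chr4:86857353-86857382 (minus) for Rps6, chr17:33955651-33955680 (minus) for Rps18, chr7:109519180-109519209 (plus) for Rpl27a, chr7:141447636-141447665 (plus) for Rplp2, chr9:66946071-66946100 (plus) for Rps27l, chr5:115559452-115559481 (plus) for Rplp0, chr16:55966260-55966289 (plus) for Rpl24 and chr9:120127751-120127780 (plus) for Rpsa. Rps27l has a further annotated start without a run. The run shown for Rps27l lies wholly before its annotated start. An annotated start can lie some bases from the true one, and a run in this window is a description of its letters.

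Of the 81 members tested, 61 had an entry, and 36 of them (59.0%) held the run at 1 start or more, beside 27.4% of the 6080 genes tested with an entry and 25.5% of all 27025 genes in the table. On the other strand the shares were 9.84% for members and 30.2% for the genes tested. The run was held by 16 of 27 members that fell (59.3%) and by 20 of 34 members that did not pass the test (58.8%).

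The libraries of a group also differed from each other, by less. From control 1 to control 2 the median member differed by 0.07 on the log2 scale and 61 members were higher, and from KO 1 to KO 2 it differed by 0.10 and 66 were higher. Between a KO and a control library the median difference was -0.28 for KO 1 against control 1, -0.19 for KO 2 against control 1, -0.36 for KO 1 against control 2 and -0.27 for KO 2 against control 2. In each of these 4 pairs, 69 to 79 members were lower in KO. Members shift together within a library, so their calls are not independent of each other. Without KO 1, the library with the lowest values, 16 members were called lower, against 5.73% of all genes, and 74 still had a log2 fold change below 0.

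The acidic stalk of the 60S subunit recruits the elongation factors. Rplp0, the base of the stalk and a gene often used as a reference in quantitative PCR, was at 1483 and 1514 FPKM in the controls and 1077 and 1295 FPKM in the KO. It fell in KO (log2 fold change -0.34 ± 0.12 SE, adjusted p = 0.243), with no overlap between the groups. Its partners Rplp1 and Rplp2, which form dimers on that base, also lay below the controls in both KO libraries but did not pass the test. Rplp1 was at 738 and 762 FPKM in the controls and 683 and 728 FPKM in the KO (log2 fold change -0.09 ± 0.10 SE, adjusted p = 0.736), and Rplp2 was at 198 and 223 FPKM in the controls and 177 and 184 FPKM in the KO (log2 fold change -0.22 ± 0.11 SE, adjusted p = 0.400).

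Rpl5 and Rpl11, which join the 5S rRNA in a particle that can also bind Mdm2 and so restrain p53 breakdown, had fold changes nearer to 0 than the median member. Rpl5 was at 178 and 162 FPKM in the controls and 156 and 145 FPKM in the KO (log2 fold change -0.17 ± 0.11 SE, adjusted p = 0.500). Rpl11 was at 343 and 316 FPKM in the controls and 279 and 308 FPKM in the KO (log2 fold change -0.17 ± 0.11 SE, adjusted p = 0.506). In both genes the KO libraries were lower than the controls, by margins that limma did not separate from the spread. Rpl5 has 4 near-identical copies in the genome that hold 58.0% of the FPKM of the family, and the sum of Rpl5 and its copies did fall (log2 fold change -0.26, adjusted p = 0.306 in limma, unadjusted p = 0.0490).

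In the 40S subunit, Rps19 had the smallest p. Rps19 is needed to mature the 18S rRNA and is the gene most often mutated in Diamond-Blackfan anemia, an inherited failure of red cell production. It was at 1149 and 1116 FPKM in the controls and 758 and 800.0 FPKM in the KO. The KO libraries were close together and well below the controls (log2 fold change -0.54 ± 0.10 SE, adjusted p = 0.0812). Rps29, a zinc-binding protein of the head, was at 508 and 516 FPKM in the controls and 387 and 344 FPKM in the KO and fell as well (log2 fold change -0.49 ± 0.11 SE, adjusted p = 0.107), as did Rps26, which lines the mRNA exit channel (log2 fold change -0.36 ± 0.11 SE, adjusted p = 0.177).

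Rps20, in the head of the subunit, showed little spread within either group, with 100.4 and 103 FPKM in the controls and 72.7 and 72.1 FPKM in the KO, and fell (log2 fold change -0.48 ± 0.11 SE, adjusted p = 0.109). Rps14, whose loss of 1 copy underlies the anemia of the 5q- syndrome, was at 1533 and 1621 FPKM in the controls and 1219 and 1219 FPKM in the KO (log2 fold change -0.37 ± 0.11 SE, adjusted p = 0.170). Its KO values were equal to 2 decimals, which columns sharing 1 distribution allow.

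Rps6, the protein that S6 kinases phosphorylate downstream of mTORC1, was at 881 and 887 FPKM in the controls and 677 and 717 FPKM in the KO and fell (log2 fold change -0.34 ± 0.10 SE, adjusted p = 0.190). Rps27a, which is made as a fusion to ubiquitin, was at 332 and 378 FPKM in the controls and 267 and 278 FPKM in the KO and fell too (log2 fold change -0.38 ± 0.11 SE, adjusted p = 0.189). Rps3, which lies at the mRNA entry channel, was at 389 and 377 FPKM in the controls and 331 and 385 FPKM in the KO, and KO 2 lay between the controls (log2 fold change -0.10 ± 0.12 SE, adjusted p = 0.729). Rps4x, Rps15, Rps16, Rps18, Rps25 and Rps3a1 fell as well and had log2 fold changes between -0.40 and -0.30.

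Rpsa, the 40S protein also known as the laminin receptor, lay near the other end of the range. It was at 239.7 and 252 FPKM in the controls and 257 and 273 FPKM in the KO, so both KO libraries were slightly above both controls (log2 fold change 0.11 ± 0.11 SE, adjusted p = 0.658). The difference did not pass the test.

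Among 60S genes, Rpl15, a core protein of the large subunit, was at 587 and 652 FPKM in the controls and 399 and 432 FPKM in the KO. It fell (log2 fold change -0.58 ± 0.11 SE, adjusted p = 0.0816) and kept an unadjusted p below 0.05 in all 17 alternative settings. Rpl15 has 5 near-identical copies that hold 34.3% of the family's FPKM, and the summed family fell as well (log2 fold change -0.49, adjusted p = 0.148 in limma). Rpl10a, the protein of the L1 stalk near the tRNA exit site, was at 285 and 282 FPKM in the controls and 209.9 and 201 FPKM in the KO and fell (log2 fold change -0.46 ± 0.10 SE, adjusted p = 0.103). The KO libraries of both genes lay far below the lower control.

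Rpl35a was at 171 and 182 FPKM in the controls and 133 and 125 FPKM in the KO and fell (log2 fold change -0.45 ± 0.11 SE, adjusted p = 0.119). Rpl8, which binds near the peptidyl transferase centre, fell from 282 ± 36.5 FPKM (SD, n = 2) in the controls to 200.3 ± 2.93 FPKM (SD, n = 2) in the KO (log2 fold change -0.49 ± 0.12 SE, adjusted p = 0.133). Rpl13 and Rpl32, both above 800 FPKM in every library, fell by 0.46 and 0.45 on the log2 scale. Rpl37a showed more spread between pools, with 493 and 622 FPKM in the controls and 413 and 339 FPKM in the KO, and fell (log2 fold change -0.56 ± 0.15 SE, adjusted p = 0.156). Rpl4, Rpl9, Rpl12, Rpl17, Rpl21, Rpl23, Rpl28, Rpl30, Rpl31, Rpl35 and Rpl36a fell as well and had log2 fold changes between -0.49 and -0.26.

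Several 60S proteins with known specialised roles did not pass the test. Rpl10, which is loaded last and completes the peptidyl transferase centre, was at 501 and 528 FPKM in the controls and 427 and 444 FPKM in the KO (log2 fold change -0.24 ± 0.10 SE, adjusted p = 0.314). Rpl38, known for its effect on translation of Hox mRNAs, was at 274 and 263 FPKM in the controls and 208 and 259.6 FPKM in the KO (log2 fold change -0.21 ± 0.13 SE, adjusted p = 0.480). Rpl41, the smallest protein of the ribosome, was at 920.1 and 928 FPKM in the controls and 800.0 and 894 FPKM in the KO (log2 fold change -0.13 ± 0.11 SE, adjusted p = 0.618). In all 3 genes both KO libraries were below both controls. Rpl39, which lines the exit tunnel, did fall, although its control pools stood apart at 51.5 and 69.3 FPKM in the controls and 42.6 and 47.0 FPKM in the KO (log2 fold change -0.41 ± 0.17 SE, adjusted p = 0.288).

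The members at the upper end of the range were Rps27l, Rpsa, Rpl24, Rps21 and Rpl34. Rpl24, which helps bridge the 2 subunits, was at 304 and 339 FPKM in the controls and 294 and 355 FPKM in the KO, with overlapping groups (log2 fold change 0.01 ± 0.13 SE, adjusted p = 0.982). Rpl34 was at 813 and 844 FPKM in the controls and 786 and 847 FPKM in the KO (log2 fold change -0.02 ± 0.11 SE, adjusted p = 0.950), and Rps21 was at 79.2 and 99.6 FPKM in the controls and 89.3 and 86.1 FPKM in the KO (log2 fold change -0.02 ± 0.14 SE, adjusted p = 0.970). For these 3 genes the direction changed when single libraries were left out, so no direction is given.

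Paralogous members can be set side by side. Rpl22, needed for the development of alpha beta T cells, was at 80.0 and 77.5 FPKM in the controls and 54.7 and 66.6 FPKM in the KO and fell (log2 fold change -0.38 ± 0.13 SE, adjusted p = 0.238). Its paralog Rpl22l1, which can take its place in the ribosome, was more abundant, at 299.9 and 294 FPKM in the controls and 189 and 228 FPKM in the KO, and fell as well (log2 fold change -0.52 ± 0.12 SE, adjusted p = 0.119). Both genes were thus lower in both KO libraries.

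Rps27 had the highest level of all members, at 5282 and 5114 FPKM in the controls and 4437 and 4102 FPKM in the KO, and fell (log2 fold change -0.28 ± 0.12 SE, adjusted p = 0.292). Rps27l, its p53-inducible paralog, was at 179.6 and 195 FPKM in the controls and 206 and 235 FPKM in the KO, the highest log2 fold change of the module (log2 fold change 0.23 ± 0.12 SE, adjusted p = 0.390). Rps27rt, named as a retrotransposed relative of Rps27, overlapped between the groups at 144 and 113 FPKM in the controls and 105 and 144 FPKM in the KO (log2 fold change -0.05 ± 0.18 SE, adjusted p = 0.930). The 3 genes of this stem therefore showed 1 fall and 2 values that did not pass the test, and a difference between the paralogs was not tested.

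Rpl36a fell (log2 fold change -0.49 ± 0.12 SE, adjusted p = 0.117), from 120.0 ± 7.18 FPKM (SD, n = 2) in the controls to 85.1 ± 4.42 FPKM (SD, n = 2) in the KO, and its relative Rpl36al was at 174 and 196 FPKM in the controls and 159 and 162 FPKM in the KO (log2 fold change -0.20 ± 0.11 SE, adjusted p = 0.433). The tissue-restricted paralogs were close to absent: Rpl3l, known from heart and skeletal muscle, was listed at 0 in all 4 libraries, Rpl10l, known from testis, reached 0.46 FPKM in 1 library, and Rpl39l did not exceed 0.97 FPKM. Rps4l, annotated as a transcribed processed pseudogene, was at 13.7 and 10.6 FPKM in the controls and 16.2 and 10.2 FPKM in the KO and was not tested. The other members that were not tested were processed pseudogenes or their transcribed forms, all with at most 27.8 FPKM (Rpl37rt).

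The levels themselves spanned a wide range. Rps27, Rps14, Rplp0 and Rpl13 were among the genes with the highest means over the 4 libraries. The lowest belonged to Rpl39, Rpl22, Rpl27a, Rps20 and Rps21. Every one of the 81 genes tested had a mean of at least 52.6 FPKM, with a median of 325 FPKM, beside 22.6 FPKM for the other genes tested. None came near the limit of 5 FPKM that a gene had to exceed in either group.

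Rpl29 had the largest fold change and the only adjusted p below 0.05, while the sum of its near-identical gene copies was higher in both KO libraries. Rpl29, a eukaryote-specific 60S protein also described as a heparin-binding protein, is on chromosome 9 of GRCm38 (chr9:106429454-106431568), within 20 Mb of Setd2. It was at 151 and 154 FPKM in the controls and 39.7 and 59.2 FPKM in the KO (log2 fold change -1.63 ± 0.18 SE, adjusted p = 0.0201). The genome holds 13 pseudogenes that share at least 50% of their 31-base words with its transcripts. Their summed FPKM were 88.3 and 83.0 in the controls and 156 and 155 in the KO, the opposite direction to Rpl29.

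Most of that came from Gm8210, at 44.3 and 38.9 FPKM in the controls and 155.61 and 67.1 FPKM in the KO, and Gm13841, at 42.9, 38.9, 0 and 84.8 FPKM in the same order. Gm13841 was listed at 0 in KO 1, where Gm8210 was highest. Rpl29 and its copies together were at 239.63 and 236.77 FPKM in the controls and 195.97 and 214.25 FPKM in the KO. The summed family had a log2 fold change of -0.22, near the median member, and did not pass the test (adjusted p = 0.380 in limma). From which of these near-identical genes the reads came cannot be told apart here, so the fall of Rpl29 is uncertain.

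**Figure D3:**
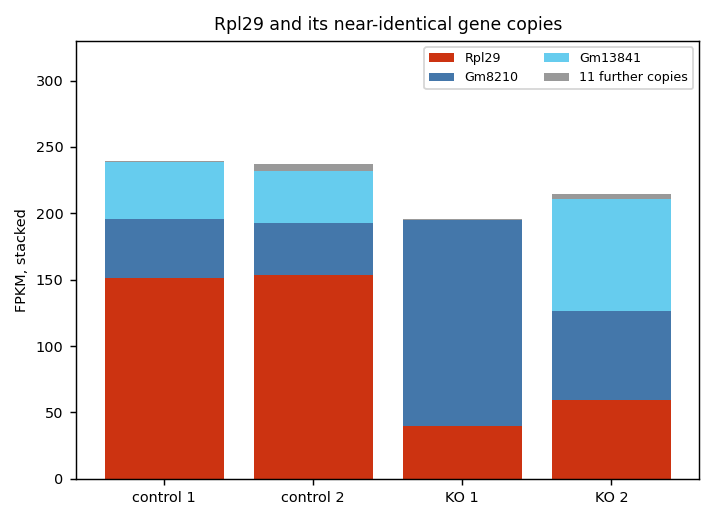
Stacked bars give the FPKM of Rpl29 (red), of the processed pseudogenes Gm8210 (dark blue) and Gm13841 (light blue), and of 11 further copies (grey) in each library. Rpl29 alone is 39.7 and 59.2 FPKM in KO against 151 and 154 FPKM in control, while the stacks reach 195.97 and 214.25 against 239.63 and 236.77 FPKM.

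Of the 81 members tested, 70 have at least 1 such copy, with 306 copies in all, of which 284 are annotated as pseudogenes. When each member was summed with its copies, 41 were lower and 0 higher, while all genes tested gave 577 lower (7.55%) and 658 higher. The log2 fold change was below 0 for 78, both KO libraries were below both controls in 63, and the median was -0.26. Without summing, the shares over all genes tested were 50.6% below 0 and 22.9% with both KO libraries below both controls. Of the 41, 39 were also called when taken alone. No summed member had an adjusted p below 0.05 in limma. Members were not counted as copies of each other, and sequence shared between members was not examined. Among the 11 members with no copy outside the members, 4 were called lower, beside 7.57% of all genes tested, and the median log2 fold change was -0.18. These 11 include Rps27 and its relative Rps27rt, and Rpl37, whose namesake Rpl37rt is also a member. Copies exceeded 20% of the family in 8 members, namely Rpl5, Rpl12, Rpl15, Rpl27, Rpl27a, Rpl29, Rpl38 and Rpl41.

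Overlapping genes added a smaller uncertainty, as no source used here says that strand was used in counting. Rpl28 overlaps Ube2s on the other strand, whose mean FPKM was 15.6% of its own. For Rps25 and Trappc4 this share was 12.4%, for Rpl35 and Arpc5l 8.68%, and for Rpl5 and Fam69a 5.39%. On the same strand, where strand could not separate them, the share was 6.77% for AC099934.3, which overlaps Rpl36al, and 4.75% for Gm20388, which overlaps Rpl13. Every other gene that overlaps a member tested was at 4.36% or less.

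Members tested were spread over 19 chromosomes. The chromosome with most members, 7, had 14, of which 5 were called lower, and chromosome 4 had 4 of 5. The share over all genes was not computed per chromosome, so these counts do not compare the chromosomes. Rpl29, Rpl14, Rpsa and Rps27rt lie within 20 Mb of Setd2. In a fit without any gene within 20 Mb of Setd2, 40 of 77 members were called lower, beside 7.43% of all genes in it. The median of the members was then -0.28.

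Ribosomal protein transcripts are short and abundant, so other genes of like length and level are given beside them. The median length of the longest coding transcript was 914 nucleotides for the members and 2884 for the other genes tested. Between 201 and 1599 nucleotides, the shortest of 5 equal classes, the 1461 other genes had a median log2 fold change of 0.06 and the 70 members of -0.28. Among genes with a mean above 500 FPKM, the 185 others had a median of 0.02 and the 23 members of -0.34. Of the other genes, 6.75% were called lower and 7.67% higher at a mean of 50 FPKM or less, and the shares grew with level in both directions, to 9.73% lower and 19.5% higher above 500 FPKM. Across the 81 members, the log2 fold change had a Pearson r of 0.08 with log2 mean FPKM and of 0.0049 with transcript length, given as descriptions.

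**Figure D4:**
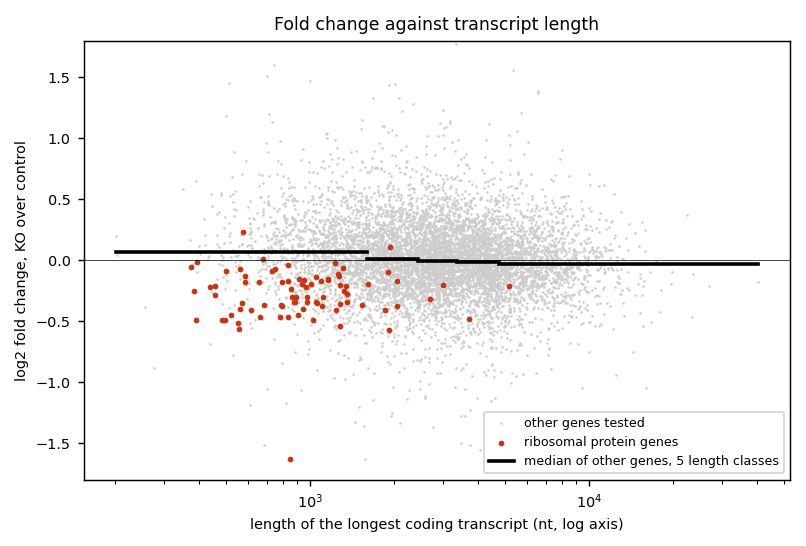
Log2 fold change (KO over control) against the length of the longest coding transcript (nucleotides, log axis) for the ribosomal protein genes (red) and the other genes tested (grey; 14 lie outside the plotted range). Black lines give the median of the other genes in each of 5 equal classes of length, from 0.06 in the shortest to -0.03 in the longest, and most red points of the shortest class lie below the line.

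The other gene lists of protein synthesis had medians nearer to 0 than the members. Fau and Rack1, ribosomal proteins with other names, did not pass the test. Fau, made as a fusion to a ubiquitin-like protein, was at 746 and 805 FPKM in the controls and 753 and 765 FPKM in the KO (log2 fold change -0.03 ± 0.11 SE, adjusted p = 0.927), and Rack1, a 40S scaffold, had log2 fold change -0.06 ± 0.12 SE, adjusted p = 0.851. Translation elongation factors and other 5' TOP mRNAs came closest to the members, with a median of -0.24. All 12 had a log2 fold change below 0, against 50.6% of all genes tested. Of the 12, 4 fell and 0 rose, against 7.57% and 8.61% of all genes tested.

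Eef1a1, which brings aminoacyl-tRNA to the ribosome, was at 1701 and 1758 FPKM in the controls and 1249 and 1274 FPKM in the KO and fell (log2 fold change -0.45 ± 0.10 SE, adjusted p = 0.112). Eef2, which drives translocation, was at 397 and 413 FPKM in the controls and 325 and 329 FPKM in the KO and fell (log2 fold change -0.31 ± 0.10 SE, adjusted p = 0.221). Naca, which binds nascent chains, and Eef1g, a subunit of the exchange factor of Eef1a1, also fell, by 0.29 and 0.27 on the log2 scale. Npm1, a nucleolar chaperone, lay lower in both KO libraries without passing the test (log2 fold change -0.28 ± 0.12 SE, adjusted p = 0.321). When same-numbered libraries were paired, 1 of the 12 was called lower, beside 4.94% of all genes. The count was also smaller without KO 1 or without KO 2, as was the share of all genes called lower.

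Of 40 translation initiation and termination factors, 5 fell and 0 rose, with a median of -0.12. Eif1, which guards start codon selection, was at 2108 and 2310.3 FPKM in the controls and 1661 and 1257 FPKM in the KO and fell (log2 fold change -0.61 ± 0.15 SE, adjusted p = 0.128). The Eif3 subunits Eif3f, Eif3d and Eif3e fell by 0.49, 0.40 and 0.32 on the log2 scale, and Eif5a, which helps the ribosome through difficult stretches, fell by 0.33. Fewer of the 40 were called lower without KO 2, and so were fewer of all genes. In the fit on all 4 libraries, the share called lower was 12.5%, nearer to the 7.57% of all genes than to the members.

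Genes that make and assemble ribosomes in the nucleolus gave 24 lower and 2 higher of 99 ribosome biogenesis factors tested (24.2% lower), with a median of -0.14. Of all genes tested, 7.57% were lower and 8.61% higher. Mrto4, a factor of the pre-60S particle, was at 133 and 111 FPKM in the controls and 61.7 and 61.9 FPKM in the KO. It had the only adjusted p below 0.05 of the list (log2 fold change -0.96 ± 0.13 SE, adjusted p = 0.0344 in limma). Rrp9, a protein of the U3 small nucleolar particle, was at 31.6 and 38.4 FPKM in the controls and 23.0 and 19.9 FPKM in the KO and fell (log2 fold change -0.68 ± 0.16 SE, adjusted p = 0.117). Rcl1, a pre-rRNA processing protein, and Ncl, the nucleolar protein nucleolin, fell by 0.56 and 0.26 on the log2 scale.

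Against this direction, Riok1, a kinase of late 40S maturation, was at 155 and 148 FPKM in the controls and 244 and 223 FPKM in the KO and rose (log2 fold change 0.62 ± 0.11 SE, adjusted p = 0.0719). Heatr1, which acts early in pre-rRNA processing, rose as well, at 6.27 and 5.85 FPKM in the controls and 10.7 and 8.53 FPKM in the KO (log2 fold change 0.58 ± 0.20 SE, adjusted p = 0.232). The number of biogenesis factors called lower depended on single libraries, and was smaller without KO 2, without KO 1 or without control 1. The share of all genes called lower was also smaller without KO 2 or KO 1, but not without control 1. Pairing the same-numbered libraries gave 11, beside 4.94% of all genes.

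Of 15 genes of RNA polymerase I and its factors, 2 fell (13.3%) and 1 rose, with a median of -0.11. Of all genes tested, 7.57% fell and 8.61% rose. Znrd1, a subunit of the polymerase, was at 51.9 and 44.5 FPKM in the controls and 31.04 and 29.7 FPKM in the KO and fell (log2 fold change -0.64 ± 0.14 SE, adjusted p = 0.0890). Taf1d fell by 0.39, while Taf1b, of the same selectivity factor, rose (log2 fold change 0.35 ± 0.14 SE, adjusted p = 0.292). In the quality control and stress list, 3 of 17 fell (17.6%) and 0 rose, beside the same shares of all genes. The 3 were Tcf25, of the complex that clears stalled chains, Gtpbp2, which rescues stalled ribosomes, and G3bp1, which builds stress granules. They fell by 0.54, 0.52 and 0.48 on the log2 scale. The count called lower was smaller without KO 2 and larger without control 1 or without KO 1. The share of all genes called lower was smaller without KO 2 or KO 1.

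Myc, the transcription factor that drives ribosome production, was at 63.4 and 77.0 FPKM in the controls and 39.9 and 37.8 FPKM in the KO. It fell with groups that did not overlap (log2 fold change -0.83 ± 0.14 SE, adjusted p = 0.0612). The Myc and mTORC1 list as a whole did not share this direction, and its median was 0.09. Of its 32 genes tested, Myc included, 2 fell (6.25%) and 6 rose, beside 7.57% and 8.61% of all genes tested. Flcn, a regulator of the Rag GTPases that bring mTORC1 to the lysosome, fell (log2 fold change -0.60 ± 0.21 SE, adjusted p = 0.238).

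Mtor itself, the kinase, was at 25.3 and 21.8 FPKM in the controls and 30.7 and 32.8 FPKM in the KO and rose (log2 fold change 0.42 ± 0.14 SE, adjusted p = 0.226). Lamtor2 and Lamtor3, which anchor mTORC1 to the lysosome, rose (log2 fold change 0.52 ± 0.11 SE, adjusted p = 0.0979 and log2 fold change 0.60 ± 0.14 SE, adjusted p = 0.117), and Rps6kb2, an S6 kinase, rose by 0.51 on the log2 scale. Larp1, which binds 5' TOP mRNAs, was at 14.1 and 12.6 FPKM in the controls and 11.3 and 12.7 FPKM in the KO, and Eif4ebp1, a repressor of cap binding, was at 22.3 and 18.8 FPKM in the controls and 21.6 and 20.7 FPKM in the KO, with neither passing the test (log2 fold change -0.14 ± 0.17 SE, adjusted p = 0.738 and log2 fold change 0.04 ± 0.15 SE, adjusted p = 0.927). The list had 3 genes called higher when same-numbered libraries were paired, beside 419 of all 7639 genes. Fewer of its genes were called higher without KO 1, and fewer lower without KO 2, as for all genes.

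Mitochondrial ribosomal proteins, encoded in the nucleus and short like the members, gave 3 lower and 2 higher of 77, with a median of -0.01 and 40 of 77 below 0. Mrps5, Mrps25 and Mrpl30 fell, by 0.72, 0.51 and 0.31, and Mrpl14 and Mrps16 rose, by 0.38 and 0.37 on the log2 scale. Their share called lower, 3.90%, did not exceed that of all genes tested, at 7.57%.

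**Figure D5:**
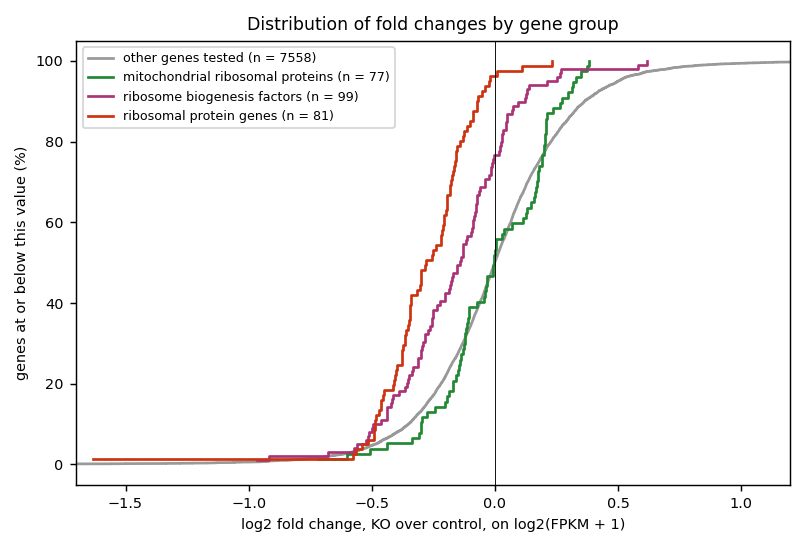
Cumulative share of genes (%) at or below each log2 fold change (KO over control, on log2(FPKM + 1)) for the ribosomal protein genes (red, n = 81), ribosome biogenesis factors (purple, n = 99), mitochondrial ribosomal proteins (green, n = 77) and other genes tested (grey, n = 7558). The medians are -0.28, -0.14, -0.01 and -0.0014, and the red curve lies left of the others over most of its range.

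Some marker lists differed between the groups beside the ribosomal protein genes, and their part in the result was not tested. The summed FPKM of 5 Treg markers was 3799 and 4220 in the controls and 4509 and 4792 in the KO. Within it, Ctla4 rose, from 1593 and 1701 FPKM in the controls to 2160 and 2310 FPKM in the KO (log2 fold change 0.44, adjusted p = 0.132 in limma). Ikzf2, which encodes Helios, fell (log2 fold change -0.37, adjusted p = 0.222 in limma). Il2ra was at 184 and 180 FPKM in the controls and 152 and 163 FPKM in the KO. It did not pass the test (log2 fold change -0.21, adjusted p = 0.392 in limma). Tnfrsf18 and Foxp3 overlapped between the groups. The 5 T cell markers summed to 2024 and 2054 FPKM in the controls and 2121 and 2141 FPKM in the KO, with no marker called.

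Of 8 epithelial markers, 6 were below 1 FPKM in every library, and the list summed to 33.2 and 35.4 FPKM in the controls and 27.2 and 28.4 FPKM in the KO, nearly all from Epcam and Krt18. Epcam fell (log2 fold change -0.53, adjusted p = 0.147 in limma) and Krt18 rose (log2 fold change 0.61, adjusted p = 0.224 in limma), both at an unadjusted p below 0.05. Endothelial markers summed to 35.0 and 36.5 FPKM against 49.3 and 42.8 FPKM, nearly all from Pecam1, which rose at the same threshold (log2 fold change 0.36, adjusted p = 0.252 in limma), with Cdh5 and Kdr at 0.25 FPKM or less. Fibroblast markers summed to 2.72 and 4.42 FPKM against 5.89 and 5.32 FPKM, mainly from Dcn. Myeloid and erythroid lists overlapped between the groups, at 226 to 286 FPKM and 6.76 to 32.9 FPKM over the 4 libraries. The share of summed FPKM from mitochondrial mRNA also overlapped, at 3.35% and 3.09% in the controls and 2.98% and 3.72% in the KO.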

How the data were processed

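RNA was measured in LI Treg cells of 2 control and 2 KO pools of mice. Paired reads (150 bp) were aligned by the authors against GRCm38 using STAR (version 2.5), genes were quantified using RSEM (version 1.2), and the authors deposited FPKM for 53379 genes. The step that gave the 4 columns a common distribution is not named in the sources used here. FPKM are not counts, so the authors' count test was not applied. Precision rests on the spread between 2 pools, which limma combines with the spread of other genes of like level. Whether the spread is biological or technical cannot be separated.

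Gene types, lengths and positions came from GENCODE M21 (GRCm38), which held 53274 of the identifiers. Protein-coding genes whose mean exceeded 5 FPKM in control or KO, the study's filter, were tested with limma 3.58.1 in R 4.3.3 on log2(FPKM + 1), with a trend and no covariate, and p-values were adjusted by Benjamini-Hochberg over 7639 genes. The fit was tested on simulated data. The SE beside each fold change is limma's. Copies were genes other than members that share at least 50% of their 31-base words with a member. Tables were handled in Python 3.11.15.

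The members, lists and tests were chosen with earlier results of these data known. Genes were named when called, at either end of the fold changes or levels, of a fixed role or a paralog pair, within 20 Mb of Setd2, or among the 3 smallest p of a list in each direction. Some genes that this rule names are not reported here. Eef1g, Eif3e, Eif5a, the gene copies, the overlapping genes and the snoRNA hosts were named after their values were seen. Control and KO libraries share replicate numbers, but no source says that these mark shared litters, and the deviations of same-numbered libraries had an r of -0.305, so no block was used. Alternatives were pseudocounts of 0.1 and 5, other filters, gene types and scalings, no trend, the block, genes near Setd2 left out and each library left out.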

Additional observations from a re-analysis of the deposited data

How the results depend on the processing

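Counts are limited by 2 pools per group, by unknown depth and by the common distribution of the columns. The median log2 fold change of the members ran from -0.33 to -0.22 when single libraries were left out, the difference in share ran from -1.13 to -0.859 percentage points, and 0 members were called higher under all 17 alternatives. The 41 members lower at an unadjusted p ranged from 16 (without KO replicate 1) to 41 with 1 library left out, and were 34 with no filter and 29 without a trend. With the replicate number as a block, a pairing that no source supports, 33 members were lower. All genes tested then gave 377 lower (4.94%) and 419 higher, with 12 and 15 at an adjusted p. A crossed pairing, chosen after seeing the data, gave 42 members lower and 13 at an adjusted p. All genes tested with that pairing gave 983 lower (12.9%) and 1008 higher, with 225 and 240 at an adjusted p. The 1 member at an adjusted p below 0.05 became 0 with no filter, with all gene types, without a trend, without genes near Setd2 and with copies summed, a setting also chosen after seeing the data, and ranged from 0 to 1 with libraries left out. Over all genes, the 21 lower and 24 higher at an adjusted p became 11 lower with a mean above 1, 3 and 8 with no filter (with 1198 higher at an unadjusted p), 8 and 5 with all gene types, 2 and 1 without a trend and 13 and 15 without genes near Setd2. With 1 library left out these 2 counts ranged from 1 to 30 and from 1 to 36, and the 578 lower and 658 higher at an unadjusted p from 314 to 600 and from 330 to 650, and the group left with 1 library was then assumed to vary like the other. Among single members that did not pass the test, the log2 fold change of Rpl24 became -0.0045 with libraries scaled to the non-ribosomal total. With a library left out, 8 members took both signs, with log2 fold changes from -0.33 to 0.18 and none called in any alternative, among them -0.12 to 0.15 for Rpl24, -0.28 to 0.18 for Rps27rt, -0.18 to 0.15 for Rps21, -0.076 to 0.032 for Rpl34 and -0.21 to 0.0069 for Rps3. The cause of these changes was not tested.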

Other observations

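Small nucleolar RNAs, which guide the modification of rRNA, are made from the introns of host genes, and many non-coding hosts are 5' TOP transcripts like the ribosomal protein genes. They were outside the genes tested, and 11 of them were chosen after their values were seen and fitted with all gene types in limma. Both KO libraries were below both controls in 7 of the 11 and above in 1 (Snhg5), beside 22.9% and 24.2% of all genes in the main fit. An unadjusted p below 0.05 was reached by 5, all lower, beside 6.55% of the 8489 genes of the same fit called lower. Gas5, the most abundant, was at 996 and 868 FPKM in the controls and 746 and 746 FPKM in the KO (log2 fold change -0.32, adjusted p = 0.296). Snhg15 was at 354 and 315 FPKM in the controls and 246 and 249.86 FPKM in the KO (log2 fold change -0.43, adjusted p = 0.215), and Snhg17 was at 16.2 and 15.5 FPKM against 10.3 and 9.42 FPKM (log2 fold change -0.64, adjusted p = 0.199). Snhg6 and Snhg8 had log2 fold changes of -0.30 and -0.37, with adjusted p = 0.335 and 0.274 in limma. None of these adjusted p passed 0.05, and the values are given as a description.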
